A study of Mus musculus with 6 samples.

Results

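A row of genes that lies close to Arhgef1 on mouse chromosome 7 was followed across wild-type (WT) and Arhgef1-/- dendritic cells: Rabac1, Grik5, Zfp574, Pou2f2, Gsk3a, Erf, Cic and Ceacam1. These are 8 of the 14788 gene symbols in the count table, all 8 passed the filter on low counts that left 11504 tested genes, and they were chosen by closeness to Arhgef1, with their WT and Arhgef1-/- counts from these same libraries already known. Not every gene in the region is among them. RNA was sequenced from type-2 conventional dendritic cells (cDC2s), the splenic dendritic cells that mainly present antigen to CD4 T cells, of C57BL/6 mice, in 3 WT and 3 Arhgef1-/- libraries. The labels give neither the deleted part of Arhgef1, nor the age of the mice, nor how cells were sorted, nor whether replicates came from separate animals. Because the members were chosen with this contrast in view, their values are given as a description, with no p-value. Whether a member passed the call rule used over all genes is stated as part of that description, and nothing is read from it. P-values are printed only for genes outside the group. They set the genotype difference against the spread between these libraries, which may be technical.

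Genes that lie side by side on a chromosome can share promoters and enhancers, and their transcripts are made in the same stretch of chromatin. Arhgef1 encodes an exchange factor that switches on RhoA, a GTPase of the actin cytoskeleton, when certain G protein-coupled receptors are engaged. Its 8 neighbours have unrelated roles: 4 nuclear proteins (Pou2f2, Cic, Erf and Zfp574), a kinase (Gsk3a), 2 membrane receptors (Grik5 and Ceacam1) and a protein of vesicle traffic (Rabac1).

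Total counts ran from 8408325 to 11714365 per library. All WT libraries came from a different sequencing lane and run name than all Arhgef1-/- libraries, so lane, run name and genotype cannot be told apart. Arhgef1 itself was at 246 to 317 CPM (the usual depth-scaled count, with library sizes adjusted by TMM) in WT and 115 to 144 CPM in Arhgef1-/-, which is 45.5% of the WT mean. Since the deleted stretch is unknown, reads from the rest of the gene may be among these. All 10 matched cDC2 markers were detected, from Esam (36.0 CPM in WT) to H2-Ab1 (8393 CPM in WT). By edgeR (adjusted p under 0.05), 4 of them fell in Arhgef1-/-, beside 4.58% of all tested genes. Another 6 did not pass and 0 rose. Those that fell were Cd4 (log2 fold change -0.67), Clec4a4 (-0.40), Sirpa (-0.32) and H2-Ab1 (-0.30), and the median of the 10 was -0.26. The calls of Sirpa and Clec4a4 were lost on leaving out single libraries. The B cell genes Ms4a1, Cd79a and Pax5 were low, at 3.03 to 17.4 CPM in WT. Of 16 macrophage markers 15 fell in Arhgef1-/- (edgeR adjusted p under 0.05), beside 4.58% of all tested genes. The median log2 fold change of the 16 was -1.86. Their summed level was 829 to 1324 CPM in WT and 300 to 470 CPM in Arhgef1-/-. In bulk RNA, fewer cells of a type and less RNA per cell cannot be told apart.

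All 8 members lie after Arhgef1 (mm10 chromosome 7, positions 24902912 to 24926594, plus strand), separated from its end by 43.2 kb for Rabac1 and 535 kb for Ceacam1, and 6 of them are on the minus strand. In the order of the chromosome, Rabac1 (24969752 to 24972754, minus) is followed by Grik5 (25009849 to 25072346, minus), Zfp574 (25072567 to 25083492, plus), Pou2f2 (25087344 to 25179726, minus), Gsk3a (25228258 to 25237851, minus), Erf (25242561 to 25250761, minus), Cic (25267704 to 25294159, plus) and Ceacam1 (25461707 to 25477603, minus). All are annotated as protein coding in GENCODE vM21. Grik5 and Zfp574 stand head to head: 220 bases separate their annotated starts, so the start region of either gene is also that of the other. The next closest members are Zfp574 and Pou2f2, 3851 bases apart and tail to tail, and Gsk3a and Erf, 4709 bases apart on the same strand.

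The stretch between Grik5 and Zfp574 and the 250 bases before the RefSeq starts of Cic and Ceacam1 are printed because these include the start regions of the 3 members whose WT and Arhgef1-/- values did not overlap. They are RefSeq sequences on build GRCm38.p6, at chr7:25072347-25072566 (minus strand, read toward Grik5), chr7:25267449-25267698 (plus strand, the first of 2 Cic starts) and chr7:25477626-25477875 (minus strand). Capitals mark the letters CACGTG, an E-box, and GGGCGG or its complement CCGCCC, a GC box.
Grik5 to Zfp574: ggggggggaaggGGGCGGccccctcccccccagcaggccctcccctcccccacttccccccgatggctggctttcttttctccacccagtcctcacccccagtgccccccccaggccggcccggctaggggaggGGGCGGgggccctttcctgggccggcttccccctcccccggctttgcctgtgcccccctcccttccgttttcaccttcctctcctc
Cic: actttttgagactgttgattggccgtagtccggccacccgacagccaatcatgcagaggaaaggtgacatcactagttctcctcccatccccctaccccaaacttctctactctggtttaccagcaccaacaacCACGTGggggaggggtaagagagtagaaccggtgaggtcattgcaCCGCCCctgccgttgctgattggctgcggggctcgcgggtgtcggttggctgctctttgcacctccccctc
Ceacam1: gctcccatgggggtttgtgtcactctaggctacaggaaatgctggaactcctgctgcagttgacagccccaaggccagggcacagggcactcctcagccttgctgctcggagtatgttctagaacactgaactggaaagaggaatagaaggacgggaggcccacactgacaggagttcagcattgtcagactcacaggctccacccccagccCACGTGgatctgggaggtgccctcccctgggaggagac
The letters CACGTG, which read the same on either strand, stand once before Cic and once before Ceacam1. Among the 32841 RefSeq promoter windows of 250 bases, 6.02% hold them, and none of the windows of Rabac1, Grik5, Pou2f2, Gsk3a and Erf, nor the window of the second Cic start, does. GGGCGG on either strand occurs in 32.7% of all windows. It occurs 2 times between Grik5 and Zfp574, once before the printed Cic start and not before Ceacam1. Other short motifs were searched for in the same windows and are not marked. Among them, CCAAT on either strand occurs in 33.9% of all windows. It stands 3 times before the printed Cic start, 2 times before the second Cic start, once before Gsk3a and not before Ceacam1. The Ceacam1 window holds 3 CG dinucleotides, against 6 in the median window of all promoters and 8 to 27 in the windows of the other 6 members that have an entry. Zfp574 has no entry of its own in the promoter table. A match of letters is a description of the sequence and not a binding site.

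Of the members, 3 passed the call rule used over all genes (edgeR adjusted p under 0.05), beside 9.67% of all tested genes. Grik5 and Ceacam1 were on the lower side, where 4.58% of all tested genes passed, and Cic on the higher side, where 5.09% did. The same 3 had values that did not overlap between genotypes, beside 27.2% of all tested genes (13.5% lower, 13.7% higher). Since the choice of members used this contrast, nothing is read from these shares. The median log2 fold change of the 8 was -0.13 and that of all tested genes 0.00. In absolute size the medians were 0.26 and 0.23, and 4 of the 8 members differed by less than 0.2 on the log2 scale.

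**Figure D1:**
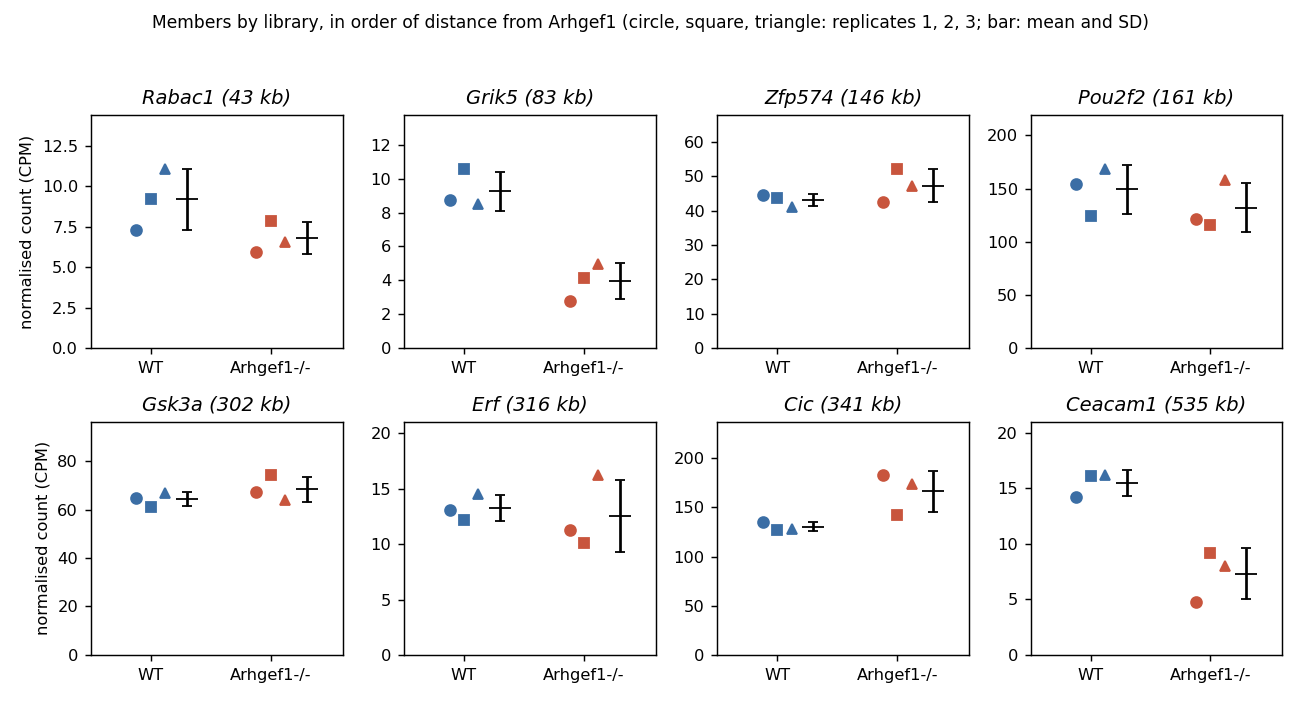
Normalised count (CPM, vertical axis from 0) of each member in the 3 WT and 3 Arhgef1-/- libraries, with panels in order of distance from Arhgef1. Circles, squares and triangles are replicates 1, 2 and 3, and the black bar is the mean with its SD. The groups are apart for Grik5, Cic and Ceacam1 and overlap in the other 5 panels.

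Of the membrane receptors, Grik5 encodes a subunit of kainate-type glutamate receptors, a family known mainly from neurons. Its level was 8.72, 10.6 and 8.49 CPM in WT replicates 1, 2 and 3, and 2.79, 4.14 and 4.95 CPM in the Arhgef1-/- replicates. Every Arhgef1-/- library was below every WT library, and Arhgef1-/- replicate 1 was the lowest. The means differed by more than the spread between libraries, at 3.96 ± 1.09 against 9.27 ± 1.15 CPM (SD, n = 3 each), which is 42.7% of WT and a log2 fold change of -1.22 ± 0.36 (SE). These levels rest on 72 to 92 reads per WT library and 24 to 58 reads per Arhgef1-/- library. Read counting alone gives a coefficient of variation of 10.9% in WT and 16.7% in Arhgef1-/-, and the observed values were 12.4% and 27.5%.

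Ceacam1 encodes an immunoglobulin-family adhesion receptor whose cytoplasmic motifs recruit the phosphatases SHP-1 and SHP-2. It was at 14.2, 16.1 and 16.2 CPM in the WT replicates and at 4.77, 9.21 and 8.02 CPM in the Arhgef1-/- replicates, again with replicate 1 lowest and with no overlap. The means were 15.5 ± 1.13 and 7.33 ± 2.29 CPM, or 47.3% of WT, and the log2 fold change was -1.07 ± 0.29. Counts were 137 to 148 reads in WT and 41 to 94 in Arhgef1-/-. The family member Ceacam2, the next Ceacam gene along the chromosome, had 3 to 18 reads per library and was not tested. Reads that match both genes could have been split or dropped, which makes the Ceacam1 level uncertain. The antisense gene 4732471J01Rik spans Ceacam1 but shares 0 exon bases with it.

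The macrophage markers fell in the same Arhgef1-/- libraries as Grik5 and Ceacam1. Within that genotype the summed macrophage level was 470, 300 and 314 CPM in replicates 1, 2 and 3. Nothing is read from an order of 3 libraries. Arhgef1-/- replicate 1 had the highest summed T cell markers, at 23.5 CPM against 4.34 to 15.5 CPM in the other 5 libraries. The only tested neutrophil marker, S100a9, was highest there too, at 11.1 CPM against 0.103 to 1.84 CPM. Without that library the log2 fold change was -1.02 for Grik5 and -0.84 for Ceacam1, and neither passed the call rule. This loss was not particular to that library. Grik5 also missed the rule without WT replicate 1, 2 or 3 or Arhgef1-/- replicate 2, and Ceacam1 without WT replicate 1, 2 or 3. The part of the macrophage, T cell and neutrophil markers in the levels of Grik5 and Ceacam1 was not tested.

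The third member to differ in every library, Cic, encodes the DNA-binding repressor Capicua, which keeps genes of the ERK pathway silent until ERK signalling inactivates it. Its level was 135, 127 and 128 CPM in WT and 182, 142 and 174 CPM in Arhgef1-/-, so all 3 Arhgef1-/- libraries were above all 3 WT libraries and replicate 2 came closest to them. The means were 130 ± 4.43 and 166 ± 21.1 CPM, 128% of WT, with a log2 fold change of 0.35 ± 0.11. With 1088 to 2037 reads per library, counting accounted for a coefficient of variation of 2.49% in Arhgef1-/-, where 12.7% was observed. The difference was smaller than those of Grik5 and Ceacam1: 33.6% of all tested genes had a larger absolute log2 fold change, against 3.18% for Grik5 and 4.69% for Ceacam1.

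The other transcriptional regulators overlapped between genotypes. Pou2f2 encodes Oct2, a POU-domain factor best known from B cells, and was at 155, 124 and 169 CPM in WT and 122, 116 and 158 CPM in Arhgef1-/-. Means were 149 ± 22.7 and 132 ± 22.9 CPM (log2 fold change -0.18 ± 0.13), and the highest Arhgef1-/- library was above 2 of the 3 WT libraries. Erf encodes an ETS-family repressor that ERK phosphorylates and removes from the nucleus. It was at 13.1, 12.2 and 14.5 CPM in WT and 11.3, 10.1 and 16.2 CPM in Arhgef1-/- (-0.08 ± 0.26), and Arhgef1-/- replicate 3 was the highest and replicate 2 the lowest of all 6. Zfp574, a zinc finger gene, was at 44.5, 43.6 and 41.2 CPM in WT and 42.5, 52.2 and 47.2 CPM in Arhgef1-/- (0.13 ± 0.15). The groups overlapped, and no difference from Grik5, across the 220 bases printed above, was tested.

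Gsk3a encodes a serine/threonine kinase that phosphorylates glycogen synthase and beta-catenin. Its level was 64.9, 61.1 and 66.7 CPM in WT and 67.3, 74.1 and 63.9 CPM in Arhgef1-/- (0.09 ± 0.13), with overlapping groups. Of its 2900 exon bases, 820 (28.3%) are also exon of the antisense gene 9130221H12Rik, which was counted at 7.56 CPM in WT and 5.39 CPM in Arhgef1-/-. Whether the counting used strand is not stated, so reads of the 2 genes cannot be told apart in that stretch. Rabac1 encodes a prenylated Rab acceptor of the Golgi and is the member nearest to Arhgef1. It was at 7.28, 9.21 and 11.1 CPM in WT and 5.94, 7.86 and 6.57 CPM in Arhgef1-/-, 73.8% of WT. The log2 fold change was -0.43 ± 0.32, and Arhgef1-/- replicate 2 exceeded WT replicate 1.

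Scaled to exon length, the members spanned more than an order of magnitude. In WT the order, in CPM per kb of exon (mean ± SD, n = 3), was Gsk3a at 22.1 ± 0.97, Pou2f2 at 18.1 ± 2.76, Cic at 12.7 ± 0.43, Zfp574 at 8.85 ± 0.36, Rabac1 at 6.04 ± 1.25, Erf at 3.68 ± 0.32, Ceacam1 at 2.67 ± 0.20 and Grik5 at 1.79 ± 0.22. No 2 neighbours in this order overlapped among the WT libraries. In Arhgef1-/- the libraries of Cic (13.8 to 17.7) overlapped those of Pou2f2 (14.1 to 19.2), those of Rabac1 overlapped those of Erf, and those of Ceacam1 (0.82 to 1.59) overlapped those of Grik5 (0.54 to 0.96). The levels of the members that were lower in every Arhgef1-/- library were the lowest per length of the 8 in WT.

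**Figure D2:**
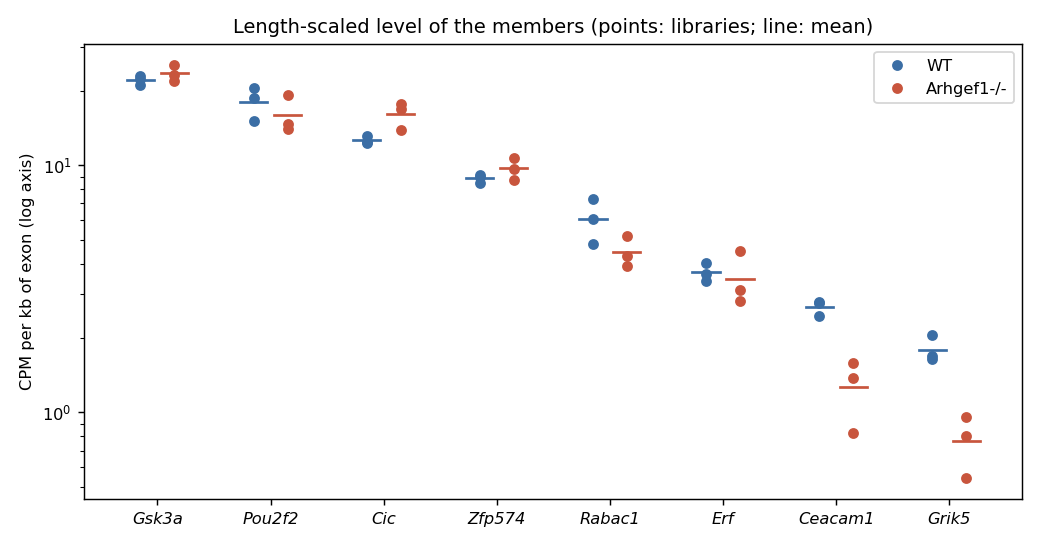
Level of each member in CPM per kb of exon (logarithmic vertical axis), ordered by the WT mean. Points are libraries and short lines are means. Gsk3a is highest at 22.1 and Grik5 lowest at 1.79 in WT.

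Fold changes did not follow the distance from Arhgef1 in order. From near to far the log2 fold changes were -0.43 (Rabac1, 43.2 kb), -1.22 (Grik5, 83.3 kb), 0.13 (Zfp574, 146 kb), -0.18 (Pou2f2, 161 kb), 0.09 (Gsk3a, 302 kb), -0.08 (Erf, 316 kb), 0.35 (Cic, 341 kb) and -1.07 (Ceacam1, 535 kb). The lowest values were those of the second nearest and of the farthest member. Between them lay 4 successive members that each differed by less than 0.2.

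**Figure D3:**
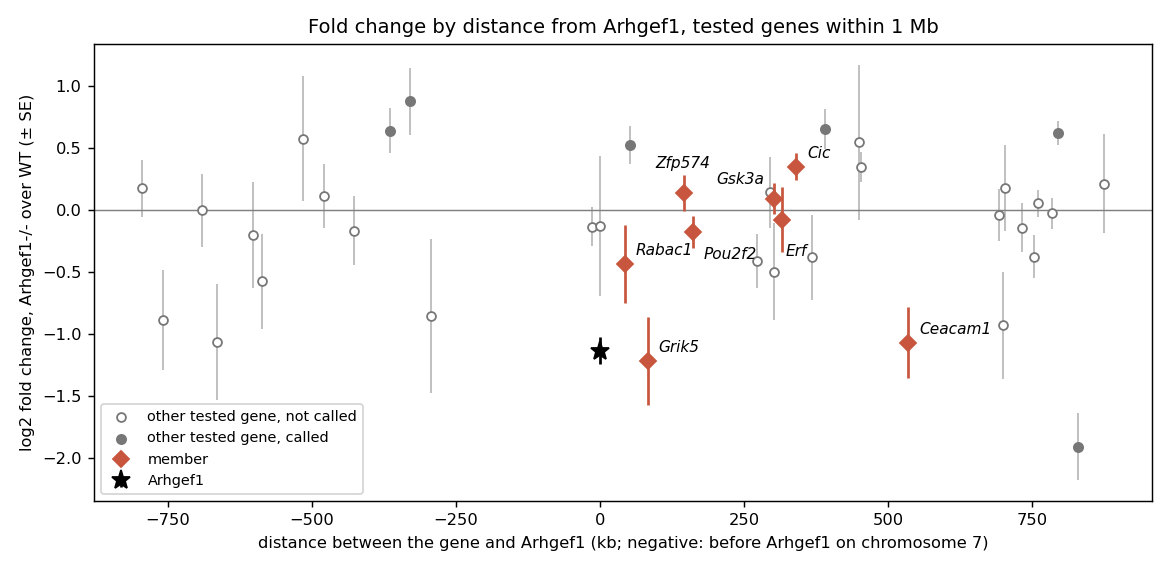
Log2 fold change (vertical axis, with SE) of the tested genes within 1 Mb of Arhgef1 by distance in kb (horizontal axis, negative before Arhgef1). Diamonds are the members, the star is Arhgef1, filled circles are other genes that passed the edgeR test and open circles those that did not. Higher and lower genes are interspersed, and Grik5 at 83.3 kb and Ceacam1 at 535 kb are the lowest members.

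Among the genes within 500 kb that are not members, 15 were tested. By edgeR 4 rose (26.7%, beside 5.09% of all tested genes) and 0 fell (beside 4.58%). The members were set apart with this contrast known, and Grik5 and Cic, which passed the call rule, lie in the same 500 kb. Nothing is therefore read from these shares. At an unadjusted p under 0.05 0 of the 15 were lower, and DESeq2 and limma-voom also called 0 lower. Of these, Irgq rose by 0.64 ± 0.18 (edgeR adjusted p = 0.0313) and the DNA repair scaffold gene Xrcc1 by 0.88 ± 0.27 (adjusted p = 0.0459). Both calls were lost on leaving out single libraries: Irgq without any but Arhgef1-/- replicate 1 (0.49 to 0.67) and Xrcc1 without any but Arhgef1-/- replicate 2 (0.44 to 0.93). The Xrcc1 values overlapped between genotypes, and its highest value was 46.6 CPM in Arhgef1-/- replicate 3. Xrcc1 also missed the call with upper-quartile factors (0.86), limma-voom (0.80) and the replicate block (0.77). Among the 15 genes DESeq2 called 4 higher and limma-voom 3. Cd79a, which ends 0.714 kb before Arhgef1, did not pass (log2 fold change -0.13, adjusted p = 0.930), nor did the ribosomal protein gene Rps19, 13.1 kb before it (-0.13, adjusted p = 0.685). The other 9 did not pass either, with adjusted p from 0.0818 (Lipe) to 0.854 (1500002O20Rik). Their log2 fold changes were -0.86 for Ethe1, -0.50 for 9130221H12Rik, -0.41 for Dedd2, -0.38 for Pafah1b3, -0.17 for Plaur, 0.11 for 1500002O20Rik, 0.14 for Zfp526, 0.34 for Lipe and 0.55 for 4732471J01Rik.

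Over wider distances, 9 of 40 tested genes within 1 Mb were called (22.5%, or 6 of 32 with the members left out, 18.8%). The members were chosen with this contrast known, so nothing is read from the shares within 1 Mb. Beyond 1 Mb, 5 of 69 were called between 1 and 5 Mb (7.25%), 17 of 195 between 5 and 20 Mb (8.72%), 48 of 576 in the rest of chromosome 7 (8.33%) and 1026 of 10492 on other chromosomes (9.78%). The count within 1 Mb dropped to 3 without WT replicate 1, 2 without WT replicate 2, 3 without WT replicate 3, 5 without Arhgef1-/- replicate 1 or 2 and 4 without replicate 3. Over all genes the calls dropped from 1113 to between 598 and 1072 in the same fits. Within 1 Mb, Hnrnpul1 (0.62 ± 0.10) and Axl (-1.91 ± 0.27), named after their values were seen, kept their calls in all 6; Axl, at 831 kb, is also on the macrophage list. Of the called genes between 1 and 5 Mb, Pak4 (0.84 ± 0.16, adjusted p = 0.00236) and Actn4 (0.59 ± 0.11, adjusted p = 0.00240) kept their calls in all 6, while the other 3 did not. Nccrp1 (0.97) no longer passed without WT replicate 1 (1.15), WT replicate 2 (0.88), WT replicate 3 (0.90) or Arhgef1-/- replicate 2 (0.53). Snrpa (0.72) lost it without WT replicate 3 (0.62), Arhgef1-/- replicate 2 (0.67) or Arhgef1-/- replicate 3 (0.65). Rasgrp4 (-0.36) lost it without WT replicate 1 (-0.34), WT replicate 2 (-0.37), WT replicate 3 (-0.37), Arhgef1-/- replicate 2 (-0.31) or Arhgef1-/- replicate 3 (-0.35).

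**Figure D4:**
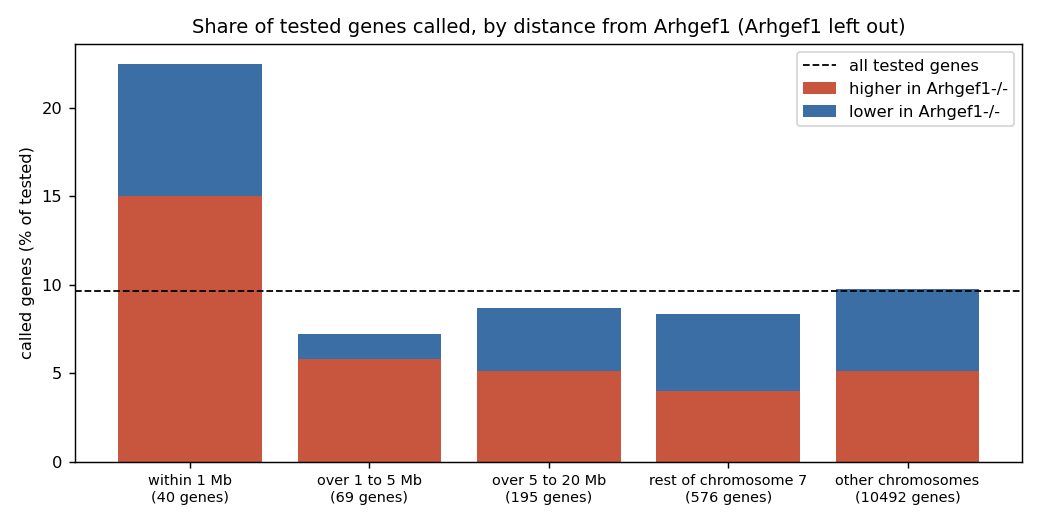
Share of tested genes called by edgeR (vertical axis, percent, from 0) in windows of distance from Arhgef1, split into higher and lower in Arhgef1-/-. The dashed line is the share over all tested genes, 9.67%. The window within 1 Mb, which holds the members chosen with this contrast known, is at 22.5% and the others are between 7.25% and 9.78%.

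The direction of 7 members was the same in every fit with a library left out, and that of Erf was not: its log2 fold change ran from -0.31 to 0.05 and was above 0 without Arhgef1-/- replicate 2. Grik5 stayed between -1.41 and -1.02, Ceacam1 between -1.26 and -0.84 and Cic between 0.28 and 0.45. For these 3 a reversal was hardly possible, because their WT and Arhgef1-/- values did not overlap. Their calls changed between the fits. Grik5 passed the call rule only without Arhgef1-/- replicate 3 and missed it without WT replicates 1 (-1.26), 2 (-1.11) or 3 (-1.27) or Arhgef1-/- replicates 1 (-1.02) or 2 (-1.24). Cic passed only without Arhgef1-/- replicate 2 and missed it without WT replicates 1 (0.38), 2 (0.33) or 3 (0.34) or Arhgef1-/- replicates 1 (0.28) or 3 (0.32). Ceacam1 missed it without WT replicates 1 (-1.13), 2 (-1.04) or 3 (-1.04) or Arhgef1-/- replicate 1 (-0.84). Arhgef1 passed in all 6 fits.

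**Figure D5:**
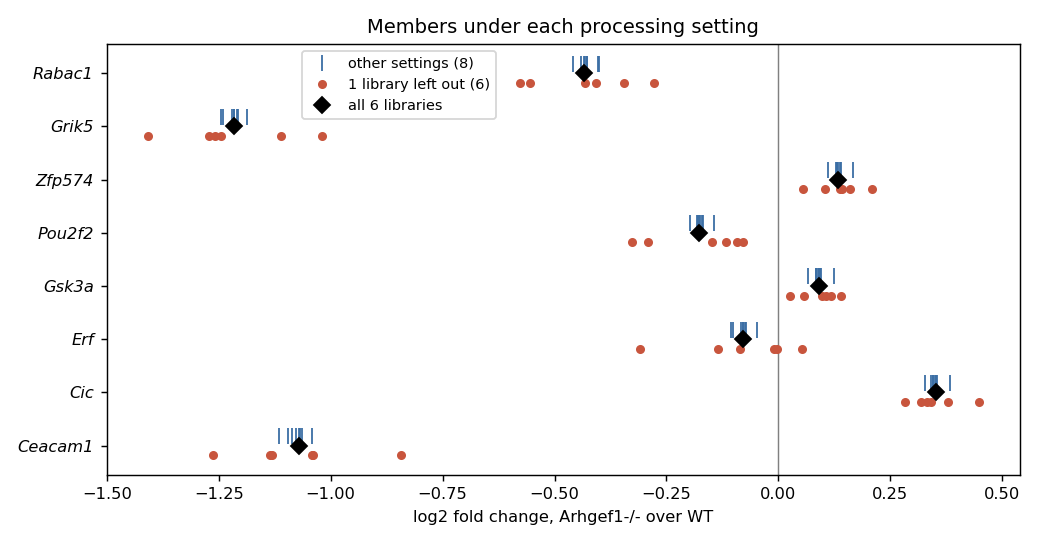
Log2 fold change of each member (horizontal axis) with all 6 libraries (diamond), with 1 library left out (circles) and under 8 other settings (bars). Circles spread more widely than bars, and those of Erf fall on either side of 0.

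Relatives of the members elsewhere in the genome were measured in the same fit. Of 4 tested paralogues 1 fell, 0 rose and 3 did not pass, beside 9.67% of all tested genes; for rises, 1 had an unadjusted p under 0.05, and DESeq2 and limma-voom called 0. The one that fell was Etv3, an ETS-family repressor related to Erf, which went from 177 ± 16.8 to 132 ± 8.39 CPM (-0.43 ± 0.10, edgeR adjusted p = 0.0142). Its call was lost without WT replicate 1 (-0.36) or Arhgef1-/- replicate 2 (-0.40). Pou2f1, which encodes Oct1, was at 117 and 139 CPM (0.25 ± 0.10, adjusted p = 0.145), Gsk3b at 314 and 346 CPM (0.14 ± 0.09, adjusted p = 0.407) and the Rabac1 relative Arl6ip5 at 43.3 and 39.6 CPM (-0.13 ± 0.16, adjusted p = 0.704). The kainate receptor gene Grik3 had 0 to 2 reads per library and was not tested.

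Among 11 tested targets of ERK signalling, several of which Cic or Erf is known to repress, 2 rose (beside 5.09% of all tested genes), 0 fell and 9 did not pass, with a median log2 fold change of 0.09 against 0.00 over all genes. At an unadjusted p under 0.05 1 was lower, which DESeq2 also called and limma-voom did not. Myc rose from 70.1 ± 6.03 to 100.2 ± 5.47 CPM (0.52 ± 0.12, edgeR adjusted p = 0.00943), a call lost without WT replicate 2 (0.45). Cyclin D1 (Ccnd1) rose from 1823 to 2146 CPM (0.23 ± 0.07, adjusted p = 0.0386), a call that held only without Arhgef1-/- replicate 1 and was lost in the other 5 fits (0.17 to 0.25), with upper-quartile factors (0.21) and with the replicate block (0.23). The phosphatase gene Dusp6 was at 46.3 and 34.0 CPM (-0.44 ± 0.15, adjusted p = 0.0808), and the ERK-responsive genes Etv4, Dusp4, Spry2 and Spry4 had at most 13 reads in a library and were not tested. Of 14 Cic partners and ERK cascade genes 0 passed the edgeR test, 1 had an unadjusted p under 0.05, and DESeq2 and limma-voom called 0.

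In the Gsk3 pathway list 2 of 16 tested genes rose, beside 5.09% of all tested genes: Myc again and Tcf7 (0.65 ± 0.18, edgeR adjusted p = 0.0307), of which limma-voom called 1 (Tcf7 was at 0.61 there and missed). In the same list 0 fell, with 2 lower at an unadjusted p under 0.05 and 0 by DESeq2 or limma-voom. Tcf7 lost its call in 5 of the 6 fits with a library left out (0.51 to 0.69), keeping it only without Arhgef1-/- replicate 2. Apc, a subunit of the beta-catenin destruction complex (-0.23, adjusted p = 0.120), and the transcription factor gene Tcf7l2 (-0.34, adjusted p = 0.111) did not pass. Of 12 Oct2 partners and B cell genes 0 passed the edgeR test, 0 had an unadjusted p under 0.05, and DESeq2 and limma-voom called 0. The Oct2 coactivator gene Pou2af1 was at 30.9 ± 0.82 and 33.5 ± 6.81 CPM. Of 5 Ceacam1 signalling partners 0 passed by edgeR or limma-voom, 3 had an unadjusted p under 0.05 and DESeq2 called 1; Ptpn6, which encodes SHP-1, was at 339 and 400 CPM (0.24, edgeR adjusted p = 0.0951).

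To name the genes most like each member, the root mean square difference between log2 CPM profiles over the 6 libraries was taken, each profile centred on its own mean. Such profiles hold the genotype difference, which was known when the members were chosen. Grik5 (-1.22) and Ceacam1 (-1.07) had the lowest log2 fold changes of the members, so closeness between them is not separate from those. Grik5 and Ceacam1 were 0.17 apart, and each was the other's nearest member; 2 tested genes were nearer to Ceacam1 than Grik5 was, Myo7a (0.10), also on chromosome 7, and Ptgfrn (0.16). In the other direction 6 tested genes were nearer to Grik5 than Ceacam1 was, and the nearest 2 were 4921507L20Rik (0.11) and 4831440E17Rik (0.13). For Cic they were Anapc16 (0.05) and Adrm1 (0.05), for Pou2f2 Cyth1 and Chkb, for Erf Cars and Tle4, for Gsk3a Klf6 and Fbxo42, for Zfp574 Ccni and Cpsf2, and for Rabac1 Nlrx1 and Stau2. Zfp574 was nearer to Gsk3a (0.09) than to any other member. Of these 16 genes only Myo7a and Cars are on chromosome 7, and the 6 libraries share their lanes within a genotype.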

How the data were processed

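Counts of reads per gene in splenic cDC2s of 3 WT and 3 Arhgef1-/- libraries were used as deposited, as raw whole numbers with 1 column per library. Per the submitters' processing notes, the authors used STAR, HTSeq and DESeq2 with build mm10. Versions, annotation, strand setting and filters are not stated there. The groups and replicate numbers come from the titles in the labels. Total counts were 8408325 to 11714365. Genes were filtered with filterByExpr, scaled by TMM and tested with edgeR 4.0.16 (quasi-likelihood, genotype as the term, Benjamini-Hochberg over 11504 genes, adjusted p under 0.05) in R 4.3.3. CPM values use TMM-scaled sizes. Each SE is the absolute log2 fold change divided by the square root of its F statistic. Positions and exon lengths came from GENCODE vM21 (mm10); 13316 of 14788 symbols matched directly, 1266 through older symbols and 206 did not. Distances run between gene bodies. The procedure was tested on simulated data.

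The members and all gene lists were chosen with earlier results of these data known. Named genes are the members, tested genes within 500 kb of Arhgef1, up to 6 called genes between 1 and 5 Mb at a mean log2 CPM of 3 or more, all tested paralogues, up to 4 genes per list with the smallest p and the 2 most similar profiles per member (0.5 CPM added before logs). Other genes are marked where named or belong to a count. Some genes that the rule names are not reported here. Of the T cell (3 tested), neutrophil (1) and erythroid (3) markers 0 passed by edgeR, DESeq2 or limma-voom or had an unadjusted p under 0.05. Of 10 cDC2 markers 4 fell (beside 4.58% of all tested genes) and 0 rose, with 0 higher by the other tools or at an unadjusted p under 0.05. Alternatives were DESeq2 size factors, no TMM, upper-quartile factors, no filter, 5 CPM in at least 3 libraries, DESeq2 1.42.0, limma-voom (limma 3.58.1), the replicate number as a block, distances between gene starts and leaving out each library.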

Additional observations from a re-analysis of the deposited data

How the results depend on the processing

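Under the 8 other settings and the 6 fits with 1 library left out, all 126 fold changes of the members and Arhgef1 moved by less than the pooled SD between replicates. With 1 library left out this was nearly fixed in advance, so nothing is read from it there. Dropping 1 of 3 replicates moves a group mean by less than that SD. The 8 other settings use the same counts. Over the 8 other settings, Grik5 ran from -1.24 to -1.19, Ceacam1 from -1.12 to -1.04 and Cic from 0.33 to 0.38. Cic missed the call rule with upper-quartile factors (0.33) and with limma-voom (0.34), and the cause was not tested. With the replicate block, 1 member passed in place of 3 (Grik5 at -1.24 and Cic at 0.34 missed it) and 5 genes within 1 Mb in place of 9; all other counts stayed within 1.5 times, with 945 genes called. The replicate numbers did not pair the libraries: deviations of same-numbered libraries correlated between -0.033 and 0.0382, and 2 of 6 libraries correlated best with their own number. Leaving out 1 library gave 598 to 1072 called genes (310 to 583 higher, 264 to 489 lower), 0 to 2 members past the call rule, 3 to 4 members above 0, 1 to 4 called genes in the pathway lists (4 with all libraries), 2 to 5 called within 1 Mb, 2 to 5 between 1 and 5 Mb, 9 to 14 between 5 and 20 Mb and 24 to 50 in the rest of chromosome 7. Fewer samples enter these fits. Distances between gene starts changed none of the 4 window counts. Depth limits Grik5, Rabac1, Ceacam1 and Erf most, at 24 to 190 reads per library.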
